A study of Rattus norvegicus with 2 samples.

Results

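The guanylate-binding and immunity-related GTPases described here were 6 genes, Gbp2, Gbp5, Igtp, Irgm, Ifi47 and MGC108823, of 16783 named genes in the expression table. They were chosen by name, with their difference between the libraries already known, so their values are a description and carry no test. RNA was sequenced from H9c2 cells, a line derived from embryonic rat heart (strain given as BD1X), that had received either an empty vector or a plasmid for Cacnb4, the beta4 subunit of voltage-gated calcium channels. With 1 library per condition no difference could be checked in replicates, and neither the share of cells transfected nor the time after transfection is given in the labels. The stated question of the series is how beta4 alters overall gene expression, with antiviral factors named in the title.

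Both families are GTP-binding proteins of the cell's own defence that interferons switch on. Guanylate-binding proteins are large GTPases related to the dynamins, and in mouse and human several of them are anchored by a lipid tail to membranes, where they assemble on vacuoles that hold bacteria or parasites and on bacteria themselves. Immunity-related GTPases are known mainly from mouse, where regulatory members such as Igtp and Irgm keep effector members such as Ifi47 in check on the cell's own membranes, while the effector members load onto the vacuoles of parasites. MGC108823 has no entry under this name in the RefSeq annotation of assembly GRCr8, so no role is given for it. It lay next to RGD1309362, which that annotation also calls Ifgga1. Between RGD1309362 and Smim3 the GRCr8 annotation lists Ifgga2l1, Ifgga4l and Ifgga2l2 among other entries, and the expression table lists MGC108823 and MGC105567 there, without a pairing of the 2 sets of names.

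Each of the 6 genes had 1 transcript in the table, with coordinates given as deposited, on rn4. Gbp5 lay on chromosome 2 from 240428471 to 240447783 and Gbp2 on the same chromosome from 240522999 to 240541078. Irgm lay on chromosome 10 from 34132511 to 34140450, with Ifi47 57.2 kb further on, from 34197629 to 34205260. Igtp lay elsewhere on chromosome 10, from 43829272 to 43837086, and MGC108823 on chromosome 18 from 56250663 to 56259384.

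RefSeq promoters on GRCr8 were found for 5 of the 6 genes, all but MGC108823, and are shown because the 6 genes were higher together and because interferon-activated factors are known to bind 2 kinds of motif. The ISRE core (interferon-stimulated response element) was searched on both strands as GAAA, 2 bases of any kind and GAAA, which reads TTTC, 2 bases and TTTC on the other strand. The GAS core (gamma-activated sequence) was searched as TTCNNNGAA, which reads the same on both strands. The window ran from 250 bases before to 50 bases after the gene start, and the 250 bases before it are printed 5′ to 3′ on the gene's strand with the matches in capitals. The stretches are chr2:234005477-234005726 (+ strand) for Gbp2, chr2:233910749-233910998 (+ strand) for Gbp5, chr10:42874797-42875046 (+ strand) for Igtp, chr10:33742579-33742828 (- strand) for Irgm and chr10:33798494-33798743 (+ strand) for Ifi47.
Gbp2: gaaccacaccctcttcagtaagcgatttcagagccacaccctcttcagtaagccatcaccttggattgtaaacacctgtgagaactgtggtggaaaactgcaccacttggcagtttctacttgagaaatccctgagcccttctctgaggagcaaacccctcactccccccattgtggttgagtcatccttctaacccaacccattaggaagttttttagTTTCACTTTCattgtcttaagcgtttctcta
Gbp5: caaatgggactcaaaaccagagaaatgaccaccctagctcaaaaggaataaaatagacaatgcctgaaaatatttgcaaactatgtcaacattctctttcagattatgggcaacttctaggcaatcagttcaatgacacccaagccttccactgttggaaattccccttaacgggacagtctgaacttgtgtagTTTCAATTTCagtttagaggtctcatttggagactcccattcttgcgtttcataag
Igtp: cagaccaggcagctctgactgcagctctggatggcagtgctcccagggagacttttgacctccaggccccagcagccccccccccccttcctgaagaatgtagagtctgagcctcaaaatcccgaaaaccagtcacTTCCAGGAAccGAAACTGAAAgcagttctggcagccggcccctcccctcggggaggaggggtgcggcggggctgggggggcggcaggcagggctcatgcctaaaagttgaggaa
Irgm: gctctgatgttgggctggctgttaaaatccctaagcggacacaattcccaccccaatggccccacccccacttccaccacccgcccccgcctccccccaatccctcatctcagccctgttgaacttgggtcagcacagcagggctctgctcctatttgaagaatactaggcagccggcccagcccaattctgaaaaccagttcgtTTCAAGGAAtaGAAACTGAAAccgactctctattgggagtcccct
Ifi47: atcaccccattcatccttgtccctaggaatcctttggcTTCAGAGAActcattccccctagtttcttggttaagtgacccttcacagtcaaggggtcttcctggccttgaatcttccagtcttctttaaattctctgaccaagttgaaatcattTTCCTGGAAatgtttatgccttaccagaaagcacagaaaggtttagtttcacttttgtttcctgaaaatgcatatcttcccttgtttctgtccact

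The ISRE core was found in 4 of these 5 promoters, and in 3.92% of the 33469 promoters of the RefSeq table. It began 31 bases before the start of Gbp2, 56 before that of Gbp5, 34 before that of Irgm and 103 before that of Igtp. The GAS core was found in 3 of the 5, those of Igtp, Irgm and Ifi47, and in 8.87% of all promoters. The Ifi47 window held the GAS core at 2 places and no exact match to the ISRE core, and near matches were not searched for. In both Igtp and Irgm the 2 kinds of match stood side by side, 2 bases apart, and the same arrangement was present in the promoter of Irgm2, which lies beside Igtp in GRCr8. Ifgga2l2 held them 2 bases apart as well, with the ISRE core first, which is the same arrangement read on the other strand. In Ifgga2l1 the ISRE core also came first, 136 bases before the start, and a GAS core began 123 bases before it. The stretches of Igtp, Irgm and Irgm2 are set out here to compare them, with the matches in capitals.
Igtp: TTCCAGGAAccGAAACTGAAA
Irgm: TTCAAGGAAtaGAAACTGAAA
Irgm2: TTCTAGGAAccGAAACTGAAA
Over these 21 bases Igtp and Irgm shared 18 letters and Igtp and Irgm2 shared 20. The fixed letters of the 2 motifs are shared by the search itself, so only the remaining positions could differ. A match of letters is a description and not evidence that a factor binds there.

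All 6 genes had a higher level in the Cacnb4 library than in the empty vector library. Levels are the authors' values, read as FPKM, which scale fragments by transcript length and library size, so that levels can be set beside each other between genes. A gene was measured if either library reached 1 FPKM. It was called higher or lower where the log2 ratio of Cacnb4 to empty vector, with 1 FPKM added to both levels, reached 2-fold, a scale on which low genes differ by less than their plain ratio. All 6 were measured and all 6 were higher by this rule, against 1.94% higher and 1.08% lower of the 9539 measured named genes, and since the genes were chosen on this contrast nothing is read from that count. The median log2 ratio was 2.24 over the 6 genes and -0.03 over all measured genes. In cells measured in bulk, more cells with the RNA and more RNA per cell cannot be told apart.

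Gbp2, a guanylate-binding protein that in mouse is recruited to parasite vacuoles, was the highest of the 6 in both libraries. Its level was 19.6 FPKM with the empty vector and 103 FPKM with Cacnb4, a ratio of 5.24 and a log2 ratio of 2.33. Among all named genes it moved from rank 3787 by level to rank 921. Gbp5, the family member reported in mouse and human to promote inflammasome assembly, was the lowest of the 6 in both libraries, at 0.631 FPKM with the empty vector and 3.20 FPKM with Cacnb4. Its ratio of 5.07 was close to that of Gbp2, although its log2 ratio with 1 FPKM added was 1.37 because both of its levels were low. In the Cacnb4 library the level of Gbp2 was 32.1 times that of Gbp5.

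Among the immunity-related GTPases, Igtp was the most abundant, at 14.5 FPKM with the empty vector and 68.0 FPKM with Cacnb4. It had the smallest ratio of the 6, at 4.70 times. Irgm, whose human counterpart is linked to autophagy, had 3.18 FPKM with the empty vector and 17.1 FPKM with Cacnb4, a ratio of 5.37. Gbp2, Gbp5, Igtp and Irgm thus had ratios between 4.70 and 5.37 while their levels in the empty vector library spanned 0.631 to 19.6 FPKM.

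Ifi47, which in mouse belongs to the effector members, had the largest ratio of the 6. It was near the bottom of the group in the empty vector library at 0.685 FPKM and reached 17.3 FPKM with Cacnb4, a ratio of 25.2 and a log2 ratio of 3.44. That log2 ratio was rank 32 of the 9539 measured genes. The ratio, the rank and the comparison with Irgm that follows rest on an empty vector level under 1 FPKM. With 5 FPKM added in place of 1 the log2 ratio of Ifi47 was 1.97, and with 0.1 FPKM it was 4.47. Its neighbour Irgm was at 4.64 times the level of Ifi47 with the empty vector and at almost the same level with Cacnb4. MGC108823 followed, with 5.13 FPKM for the empty vector and 60.4 FPKM for Cacnb4, a ratio of 11.8. It was rank 36 by log2 ratio, while Gbp2, Igtp, Irgm and Gbp5 had ranks 68, 75, 78 and 126.

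**Figure D1:**
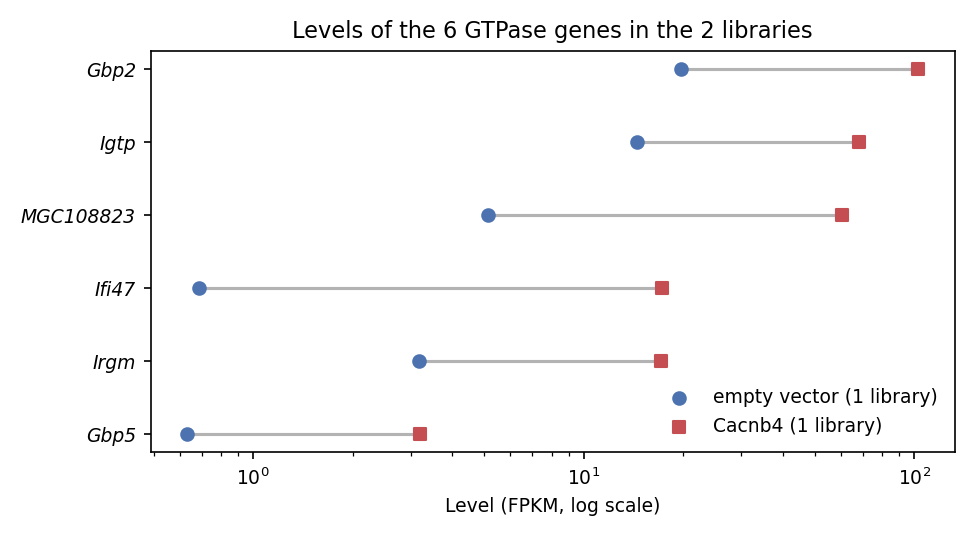
Levels of the 6 genes in FPKM on a log axis, with a circle for the empty vector library and a square for the Cacnb4 library, 1 library each and no error bars. Every square lies to the right of its circle, and the longest line is that of Ifi47, from 0.685 to 17.3 FPKM.

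Summed over the 6 genes, the level was 43.7 FPKM with the empty vector and 269 FPKM with Cacnb4, 6.15 times as much. The make-up of that sum differed between the libraries. MGC108823 held 11.7% of it with the empty vector and 22.5% with Cacnb4, and Ifi47 held 1.57% and 6.44%. Gbp2 held 44.9% and 38.3%, and Igtp 33.1% and 25.3%, so that their part was smaller in the Cacnb4 library although both levels were higher. The order of levels was the same in both libraries for Gbp2, Igtp and MGC108823 at the top and Gbp5 at the bottom, and Irgm and Ifi47 changed places. Several neighbours in the order lay close together. Igtp was 1.13 times MGC108823 and Ifi47 1.01 times Irgm in the Cacnb4 library, and Ifi47 was 1.09 times Gbp5 in the empty vector library. With 1 library each, such gaps cannot be set against a spread.

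**Figure D2:**
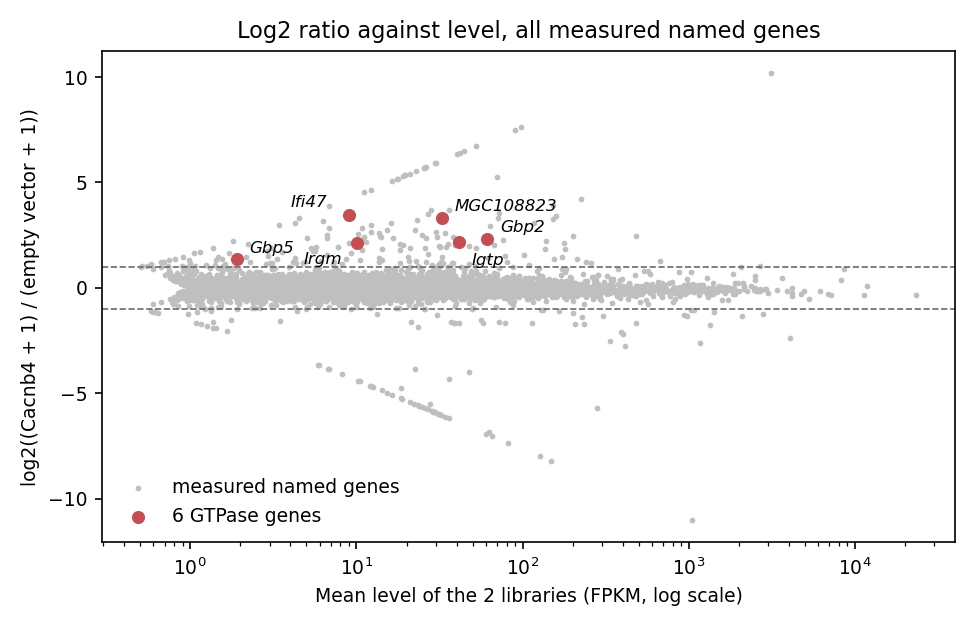
Log2 ratio of the Cacnb4 to the empty vector library with 1 FPKM added, against the mean level of the 2 libraries in FPKM on a log axis, for the 9539 measured named genes in grey and the 6 GTPase genes in red, with dashed lines at 2-fold. The 6 genes lie above the upper line at log2 ratios from 1.37 to 3.44, and the grey diagonals are genes listed at 0 in 1 library.

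The authors' deposited table marked all 6 transcripts as significant between these 2 libraries, a mark it gave as higher to 0.674% of all 32767 transcripts and to 0.489% of those with a gene name. These tests compare the reads of 2 libraries and not the conditions. The authors' deposited table gave Ifi47 and MGC108823 a q-value of 0. In the authors' deposited table the q-value was 3.78e-11 for Gbp2, 8.52e-10 for Igtp, 4.88e-09 for Irgm and 0.000378 for Gbp5, the gene with the lowest levels. Members of these families resemble each other in sequence, and their reads may be divided among them, which makes single values uncertain.

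Of the other GTPases listed for these families, 8 had rows in the table, and 3 of the 8 were at least 2-fold higher and 0 lower, with a median log2 ratio of 0.12. The 3 were RGD1309362 and the dynamin-like antiviral proteins Mx1 and Mx2. RGD1309362, the neighbour of MGC108823, had 2.86 FPKM with the empty vector and 19.4 FPKM with Cacnb4, a ratio of 6.77. Mx1 was at 2.61 and 29.5 FPKM, and Mx2 at 28.3 and 276 FPKM. The atlastins, relatives of the guanylate-binding proteins that fuse membranes of the endoplasmic reticulum, stayed within 2-fold. Atl3 was at 29.9 and 32.6 FPKM, Atl2 at 12.1 and 13.2 FPKM and Atl1 at 2.13 and 1.89 FPKM. Irgq and Irgc, relatives of the immunity-related GTPases, were also within 2-fold, Irgq at 10.4 and 10.8 FPKM and Irgc at 1.41 and 1.58 FPKM. Among these 8 genes the marks in the authors' deposited table went to Mx1, Mx2 and RGD1309362.

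Transcripts without a gene name lay between and beside several of the 6 genes, and nearly all of them were higher too. Between Gbp5 and Gbp2, over 75.2 kb, the table listed 16 such transcripts and no named gene. With Cacnb4 all 16 were 2-fold or more higher, against 13.0% of all 13533 unnamed transcripts, and the group was known from earlier results. No minimum level was asked for that share, so it may include transcripts too low to reach 2-fold on this scale. The 16 were short, with spans of 101 to 705 bases. Levels ran from 0 to 94.9 FPKM with the empty vector and from 21.9 to 563 FPKM with Cacnb4. The 563 FPKM was that of the shortest, of 101 bases, which the authors' deposited table did not mark. The reads behind such short transcripts are unknown, so their levels are not set beside those of the named genes. For the 13 not listed at 0 in the empty vector library the ratio ran from 4.53 to 21.4 with a median of 10.5. The authors' deposited table marked 10 of the 16 as significant, against 0.938% of all unnamed transcripts as higher. The longest, from 240508646 to 240509351, was at 3.69 FPKM with the empty vector and 23.4 FPKM with Cacnb4, 6.33 times as much. The one with the lowest q-value in the authors' deposited table, 9.15e-07, lay from 240499769 to 240500270 and was at 4.23 and 39.0 FPKM. In the GRCr8 annotation the genes between Gbp5 and Gbp2 are Gbp7 and Gbp4, further guanylate-binding proteins. The expression table names neither there, and its rn4 positions were not carried over to GRCr8, so that no transcript is assigned to them. Of 10 other GTPase genes whose RefSeq promoters were searched, 6 held the ISRE core, against 4.12% of all 27457 genes with promoters. The 6 were Gbp7, Gbp4, Irgm2, Ifgga2l1, Ifgga2l2 and, in 1 of its 2 promoters, Gbp1. The promoters of Gbp6, Igtpl1, Ifgga4l and Mx1 did not hold it. The GAS core was found in 4 of the 10 genes, namely Gbp7, Irgm2, Ifgga2l1 and Ifgga2l2, against 9.39% of all genes.

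Beyond Gbp2, up to Kat3, 5 more unnamed transcripts were listed, and all 5 were at least 2-fold higher. This window was chosen after the values were seen, as were the others beside the planned one between Gbp5 and Gbp2. The 5 were at 0 to 40.8 FPKM with the empty vector and 19.5 to 493 FPKM with Cacnb4. Both highest levels were those of the shortest, of 88 bases, which was not marked. Of these 5, 1 was marked in the authors' deposited table. Genes in that interval in GRCr8 include Gbp1, Gbp3 and the pseudogenes Gbp1-ps1 and Gbp6-ps2. Around Igtp the picture was alike. Between Mrpl22 and Igtp lay 4 unnamed transcripts at 0 to 0.991 FPKM with the empty vector and 8.85 to 15.3 FPKM with Cacnb4, where GRCr8 lists Igtpl1. Between Igtp and Zfp692 lay 3, at 12.6 to 23.4 FPKM with the empty vector and 57.9 to 181 FPKM with Cacnb4, where GRCr8 lists Irgm2 among other genes. The authors' deposited table marked 3 of the 4 and all 3. The longest, from 43851862 to 43854569 on chromosome 10, was at 15.3 and 85.0 FPKM, and its ratio of 5.54 lay near the 4.70 of Igtp. Near Irgm, by contrast, 2 unnamed transcripts lay between it and Trim41, of which 1 was at 12.1 and 27.0 FPKM and 1 at 4.19 and 4.04 FPKM.

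Named neighbours were mostly within 2-fold, with the exceptions on chromosome 18. Most measured named genes were within 2-fold as well, with 1.94% higher and 1.08% lower. Within 500 kb of the 6 genes lay 22 measured named genes that are not among them, and 20 of these stayed within 2-fold, with log2 ratios from -0.24 to 0.44. The other 2 were RGD1309362 and MGC105567, on either side of MGC108823. MGC105567 was at 2.73 FPKM with the empty vector and 15.4 FPKM with Cacnb4, and its 5.63-fold difference was marked in the authors' deposited table. On chromosome 2, Pdlim5 was at 122 and 112 FPKM and Gtf2b at 32.9 and 29.4 FPKM. On chromosome 10, Mrpl22, the closest named gene to Igtp at 19.9 kb, was at 33.2 and 40.5 FPKM, and Trim41, 48.4 kb from Irgm, was at 8.54 and 8.61 FPKM.

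**Figure D3:**
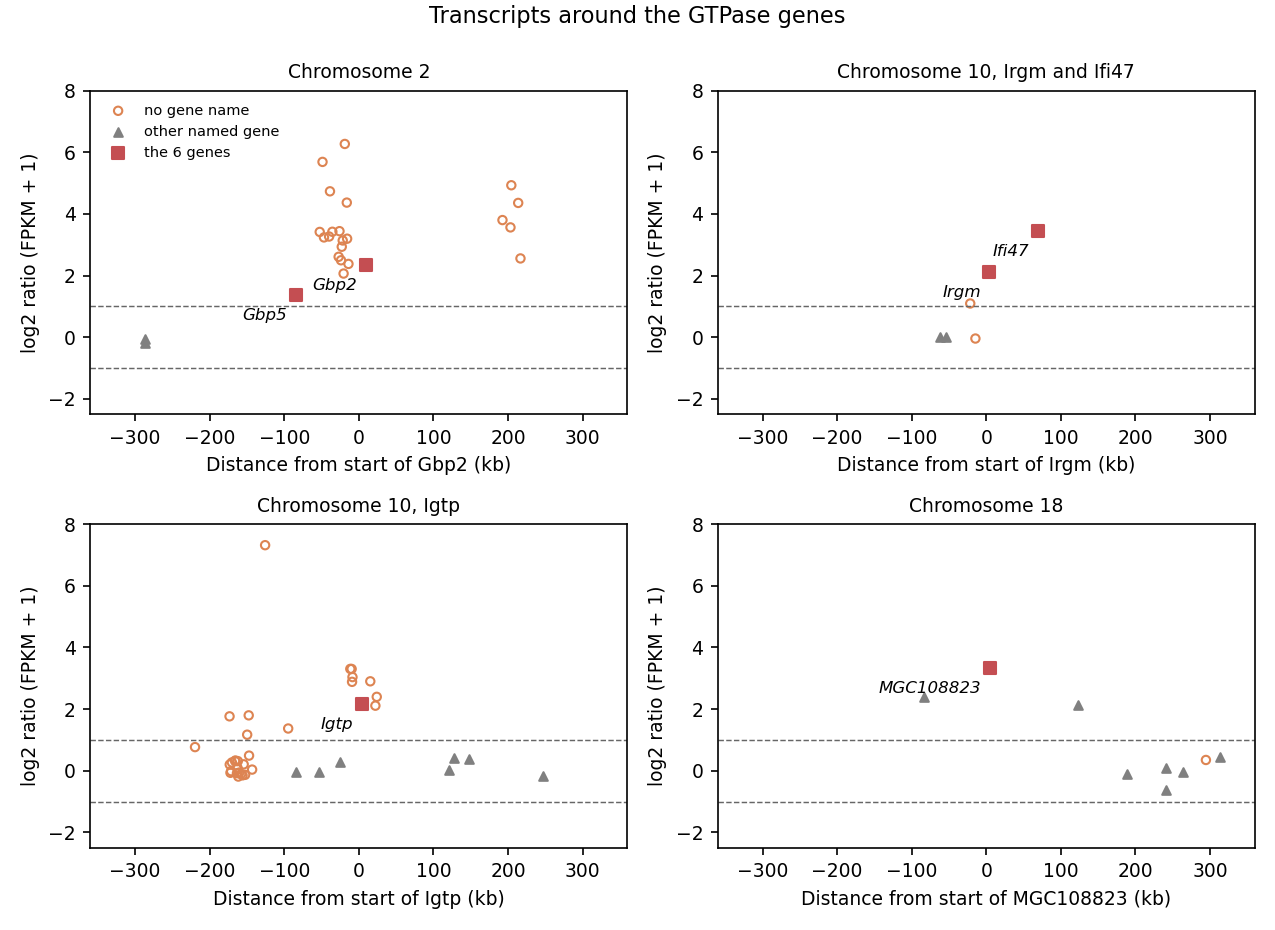
Log2 ratio of the Cacnb4 to the empty vector library with 1 FPKM added, against distance in kb from the start of Gbp2, Irgm, Igtp or MGC108823, for transcripts that reached 1 FPKM in either library; squares are the 6 genes, triangles transcripts of other named genes, open circles transcripts without a gene name, and dashed lines mark 2-fold. Open circles beside Gbp2 and Igtp lie above the upper line, most of those further before Igtp lie between the lines, and the triangles above it are RGD1309362 and MGC105567 on chromosome 18.

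Both families are classic targets of interferon gamma and are also switched on by type I interferons, and the genes of these 2 routes were compared beside them. Of 11 measured genes of interferon gamma signalling, 2 were at least 2-fold higher and 0 lower, with a median log2 ratio of 0.12. The interferon gamma gene Ifng itself was below the minimum in both libraries, at 0.121 and 0.439 FPKM. Its receptor genes were at similar levels in both, Ifngr1 at 33.3 and 36.1 FPKM and Ifngr2 at 9.46 and 9.67 FPKM. The 2 higher genes were Cd274, an inhibitory ligand for T cells, at 1.28 and 12.1 FPKM, and the feedback inhibitor Socs1, at 1.16 and 5.93 FPKM. The transcription factor Irf1, known to act on genes of the guanylate-binding family, was at 17.1 and 31.6 FPKM, under 2-fold.

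Of 9 measured genes of type I interferon signalling, 5 were at least 2-fold higher and 0 lower, with a median log2 ratio of 1.47. Stat2, a subunit of the factor that binds the interferon-stimulated response element, was at 25.7 FPKM with the empty vector and 127 FPKM with Cacnb4. Its ratio of 4.96 fell inside the range of Gbp2, Gbp5, Igtp and Irgm. Irf7, a transcription factor that amplifies interferon genes, was at 60.4 and 341 FPKM. The ubiquitin-like modifier Isg15 had 285 FPKM with Cacnb4, 15.9 times its level with the empty vector, and Usp18, which removes it from proteins, was at 23.9 and 210 FPKM. Ifnb1, the interferon beta gene, was the fifth of the higher genes, at 0.671 and 3.64 FPKM, and its ratio of 5.43 rests on low levels. Its receptor gene Ifnar1 was at 16.1 FPKM in both libraries. A difference between the 2 lists was not tested. The lists differ in make-up, so their counts and medians are not like for like.

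Genes whose proteins work with these GTPases in other cells stayed mostly within 2-fold, as did most genes. Of all measured named genes 1.94% were higher and 1.08% lower, so nothing particular to these lists is read from their counts. In mouse, the ATG8 conjugation machinery of autophagy is needed to direct both families to vacuoles. Of 21 measured genes of that machinery and of the tagging of vacuoles, 1 was at least 2-fold higher and 0 lower, with a median log2 ratio of -0.05. The higher one was Trim21, a ubiquitin ligase and antibody receptor of the cytosol, at 3.81 and 24.4 FPKM. The galectin Lgals3, which marks broken vacuoles, was at 96.9 and 68.5 FPKM, the protease Atg4b at 12.9 and 10.3 FPKM and the ATG8 protein gene Map1lc3b at 166 and 141 FPKM.

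Guanylate-binding proteins are also known to act upstream of inflammasomes and pyroptosis, a lytic cell death. Of 7 measured genes of that list 0 were 2-fold different in either direction, with a median log2 ratio of 0.25. Casp4, the sensor of cytosolic lipopolysaccharide, was at 30.6 FPKM with the empty vector and 59.2 FPKM with Cacnb4, just under 2-fold, and counted as 2-fold higher when its transcript with the highest mean stood for the gene. The pore-forming Gsdmd was at 29.4 and 43.3 FPKM and Ninj1, which ruptures the membrane, at 40.3 and 58.9 FPKM. The adaptor Pycard was at 12.1 and 8.97 FPKM, while Casp1 was below the minimum, at 0.300 and 0.213 FPKM. Genes of prenylation were also compared, for enzymes that make the lipid, add it to proteins or process the protein end that carries it. Of these, 0 of 10 measured genes were at 2-fold, with a median log2 ratio of -0.07. There Rabggta was at 9.29 and 7.97 FPKM, Icmt at 12.8 and 11.5 FPKM, Fdps at 149 and 138 FPKM and Fntb at 2.21 and 2.01 FPKM.

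**Figure D4:**
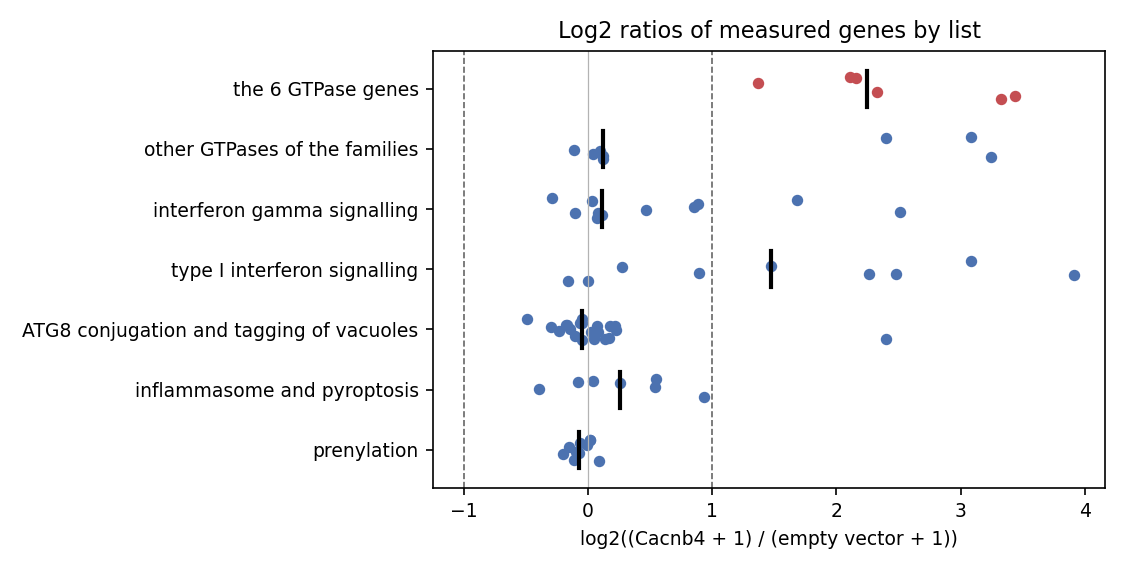
Log2 ratios with 1 FPKM added of measured genes, 1 point per gene, for the 6 GTPase genes and 6 lists of related genes, with a bar at each median and dashed lines at 2-fold; vertical scatter within a row has no meaning. The 6 GTPase genes lie between 1.37 and 3.44, the prenylation list between the dashed lines, and 5 genes of type I interferon signalling beyond the upper one.

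The 6 measured genes with the log2 ratio nearest to the members' median of 2.24, which over 2 libraries is the only likeness of pattern available, were Tap1, Apol9a, Stat2, Kcnt1, Defb38 and RT1-N2. They differed from that median by 0.07 or less on the log2 scale. Tap1, a subunit of the peptide transporter of antigen presentation, was at 13.7 and 68.3 FPKM, Apol9a at 48.2 and 229 FPKM and RT1-N2 at 3.51 and 19.3 FPKM. The potassium channel gene Kcnt1 was at 2.96 and 18.2 FPKM, and Defb38, of the beta-defensin family, at 0.00470 and 3.62 FPKM.

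The libraries held 13569897 mappable reads with the empty vector and 14939784 with Cacnb4, of which 14.6% and 12.7% were unmapped. Cacnb4 was at 4.37 and 6266 FPKM, and these values do not separate plasmid from the cells' own transcripts. Of 8 markers of skeletal myoblasts 6 were measured and 0 were 2-fold different, with a summed level over the list of 445 and 536 FPKM. Cdh15 was at 279 and 340 FPKM, Myod1 at 89.8 and 101 FPKM, Myog at 51.3 and 71.9 FPKM, Des at 7.55 and 6.02 FPKM and Chrnd at 0.757 and 1.60 FPKM, while Myf5 and Myf6 were below the minimum. Of 7 markers of cardiac muscle 4 were measured and 0 were 2-fold different, with a summed level over the list of 446 and 506 FPKM. Tnnt2 was at 214 and 309 FPKM, Actc1 at 225 and 192 FPKM, Gata4 at 4.05 and 3.05 FPKM and Tnni3 at 2.42 and 1.46 FPKM, while Nkx2-5, Myh6 and Nppa were below the minimum in both libraries. Leukocytes express many of these GTPases, and of 8 leukocyte markers 0 were measured. Their summed level was 1.70 FPKM with the empty vector and 1.98 FPKM with Cacnb4, with the pan-leukocyte marker Ptprc at 0.0191 and 0.0846 FPKM and Emr1 listed at 0 in both. Of 4 endothelial markers 0 were measured, with a summed level of 0.273 and 0.482 FPKM.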

How the data were processed

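Transcript levels from RNA-seq of 2 libraries of H9c2 cells were used. The authors' read counts per library cover reads with the 3' adaptor removed and at least 10 bases, per the file's footnote. The submitters' processing notes name TopHat 1.4.1 and rn4, and no source used here gives the program behind the transcript levels. The unit is not named in the file headers. The deposited values were read as FPKM from the layout and the values. P-values and q-values are the authors', from the deposited table. The reads behind each transcript are unknown, so no counting interval is given.

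FPKM was summed per gene symbol, leaving out 13533 transcripts without a name and 17 with a name in the form of a date. Thresholds stand in the report. With 1 library per group no test was made. The 2-fold rule was also tried on simulated data with known changes larger than 2-fold. Only genes at 5 FPKM or more were simulated, so that trial does not cover genes as low as Gbp5. The 6 genes and all lists were chosen with earlier results of these data known. Named were the 6 genes, every other listed GTPase with a row, up to 4 genes with the largest absolute log2 ratio per list, the 6 genes nearest to the members' median, and Cacnb4; other genes (receptor genes, Ifng, Ifnb1, Casp1, single neighbours and markers) were added after their values were seen. 1 gene named by this rule is not reported here. Listed genes were matched by symbol or unique RefSeq synonym. Proteins were not analysed here. As alternatives, 0.1 or 5 FPKM was added before the log, the minimum was dropped or set to 5 FPKM, genes were read from their transcript of highest mean, and levels were rescaled to a median ratio of 1. For the authors' calls a q-value below 0.01 or at least 1 FPKM was asked. Python 3.11.15, numpy 2.4.6, pandas 2.3.3 and matplotlib 3.10.9 were used.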

Additional observations from a re-analysis of the deposited data

How the results depend on the processing

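No paired analysis was possible because each group had 1 library. A value counted as moved when it changed by more than 1.5 times, since no spread was at hand. Of 161 recomputed values 150 did not move, 11 moved and 0 changed sign where the reported value was past 2-fold. With a pseudocount of 5 FPKM the log2 ratio was 0.54 for Gbp5, which then was not past 2-fold, 1.43 for Irgm, 1.97 for Ifi47 and 2.69 for MGC108823. The median of type I interferon signalling was then 0.80 and 1 gene of interferon gamma signalling was higher. With 0.1 FPKM the log2 ratio was 2.18 for Gbp5 and 4.47 for Ifi47, and the median of type I interferon signalling was 2.28. A minimum of 5 FPKM brought the median of the other GTPases to 1.26. With the transcript of highest mean 1 gene of the inflammasome list was higher. The count of the 6 genes at 2-fold was 5 with a pseudocount or a minimum of 5 FPKM and 6 under the other 4 alternatives. The order of the log2 ratios on this scale depends on the pseudocount by construction, for Ifi47 as well as Gbp5. With 5 FPKM Ifi47 was no longer the highest of the 6. It then lay below MGC108823 and below Gbp2, which was at 2.13. Depth limits the low genes and the shortest unnamed transcripts most, since reads per transcript are unknown.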

Other observations

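The side-by-side arrangement seen in the promoters of Igtp and Irgm, the GAS core followed within 10 bases, without overlap, by the ISRE core on either strand, was searched for in the whole RefSeq promoter table after it had been noticed, so the search is a description. In that order it was present in 7 of 33469 promoters, 0.0209%, from 7 genes. The order with the ISRE core first, which is the same arrangement read on the other strand, was not counted. The promoters of Ifgga2l2 and Ifgga2l1 held that other order, so 7 is not a full count of the arrangement. Of the 7 counted genes, 4 had a row in the expression table. Beside Igtp and Irgm they were Parp14, an ADP-ribosyltransferase, at 11.2 FPKM with the empty vector and 64.8 FPKM with Cacnb4, and Bst2, the tetherin of budding virions, at 3.47 and 50.1 FPKM. Igtp and Irgm were chosen on this contrast and their promoters prompted the search, and with Parp14 and Bst2 alone as further genes, beside 1.94% of measured genes at least 2-fold higher, nothing is read from these values. The other 3, Irgm2, Samd9 and LOC134481556, had no row under these names.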
